A study of Mus musculus with 15 samples.

Results

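The contacts of gene promoters with other DNA fragments were compared between the 4 Late libraries and the 3 Basal libraries of a promoter-capture Hi-C series of 15 libraries from mouse hippocampus. The 7 libraries were chosen by their titles, and every promoter in the table was included. In this assay, fragments that lie close together in the nucleus are joined and sequenced, and joined pairs that hold a chosen promoter are enriched. All groups carried the same alleles, ArcCreERT2 x R26R-STOP-floxed-eYFP with genotype +/+, in which the promoter of the activity-induced gene Arc drives a tamoxifen-dependent recombinase that switches on a yellow fluorescent protein. Per the labels, 4-hydroxytamoxifen was given 1 h before contextual fear conditioning, and nuclei were sorted with antibodies against the neuronal protein NeuN and against GFP. Hippocampi of 10 to 12 mice were pooled to reach 10000 nuclei, so single animals cannot be told apart. In the protocol, mice were killed either 1.5 to 2 h after conditioning or 5 days after it, with or without a new exposure to the cue. The treatment labels name a foot shock on day 0, no recall and a collection day. These days (0 to 2 for Basal, 7 to 10 for Late) run on with sample order, and the labels conflict with the protocol. Which of the protocol's treatments the Late group received, and how the Basal group was treated, thus cannot be settled from the labels. No age is given. The series names memory formation and recall as its subject, and the comparison of Late with Basal asks, by the group names, which promoter contacts of labelled neurons differ at a late stage from a baseline. Contacts are positions on DNA, so the table holds no expression of cell type markers against which the sorted nuclei could be checked.

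A promoter can be reached through looping by distal elements such as enhancers, and cohesin and CTCF are the proteins best known for forming such loops. In neurons, activity induces a first wave of immediate early genes, many of them transcription factors such as the AP-1, EGR and NR4A families, which act on later genes for synapse structure and signalling. The cAMP response element is bound by CREB, a factor long studied in memory. A contact states that a fragment and a promoter were found together, and says nothing of whether the gene was transcribed.

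The table held 36353 listings, each joining a promoter to a fragment cut by HindIII, from 4429 promoters and 33334 fragments. Of these, 20654 listings of 4126 promoters had a score in at least 1 Late or Basal library. The score is the authors' interaction score, a whole number with no fixed upper limit, and a dot in the table was read as no score and entered as 0. The fragments scored numbered 3903, 3477 and 5259 in Basal libraries 1 to 3 and 2995, 3256, 7165 and 7224 in Late libraries 1 to 4. Median scores were 302, 195 and 13 in Basal and 18, 19, 160 and 100 in Late. Read depths were not given in the sources used here, so no counting interval can be attached to a score. The mean number of scored fragments over libraries was 5160 ± 2352 in Late (SD, n = 4) and 4213 ± 931 in Basal (SD, n = 3). The difference of 947 fragments was smaller than the spread between libraries, with a two-sided exact permutation p of 0.571, where the smallest p this design allows is 0.0571. With libraries that repeat each other taken as 1 unit, the difference was 685.5 (n = 2 against 2), with an exact permutation p of 1, where the smallest possible is 0.333.

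The libraries of each group fell into pairs that repeated each other. Basal 1 and 2 shared 91.3% of the fragments of the smaller library, Late 3 and 4 shared 90.8%, and Late 1 and 2 shared 48.3%. The other pairs among the 7 libraries shared 7.37% to 29.7%. Libraries sharing 40% or more were therefore joined, and each group was treated as 2 library sets, Basal 1+2 and Basal 3 against Late 1+2 and Late 3+4. Whether the libraries of a set came from separate animals is not stated in the labels.

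**Figure D1:**
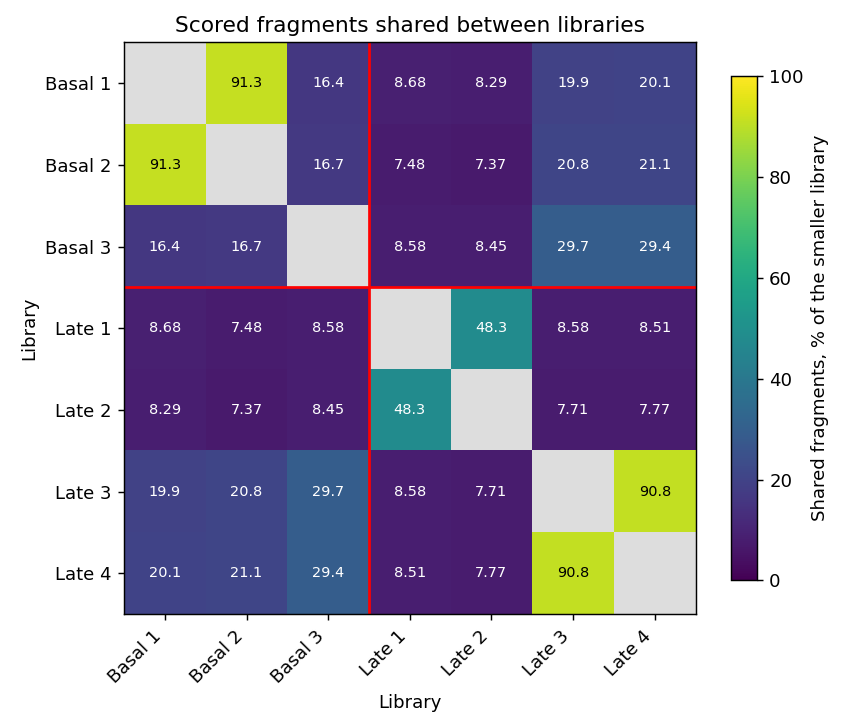
Percentage of scored fragments shared by each pair of Basal and Late libraries, relative to the smaller library of the pair, with red lines between the groups. The pairs Basal 1 and 2, Late 1 and 2, and Late 3 and 4 stand out at 91.3%, 48.3% and 90.8%, and all other pairs lie at or below 29.7%.

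Scores of 5 or more counted as a called contact. A contact was counted as gained where it was called in at least 1 library of each Late set and had no score in any Basal library, as lost in the reverse case, and as retained where it was called in all 4 sets. By these definitions 223 listings were gained, 1.08% of the 20654 scored, 390 were lost (1.89%) and 58 were retained (0.281%). Only listings called in both sets of a group could count as gained or lost. These were 437 for Late and 840 for Basal, so the 2 counts are not drawn from equal numbers. The gained contacts involved 194 fragments and 213 promoters, 4.81% of all promoters, and the lost contacts 344 fragments and 346 promoters, 7.81%. Both kinds were found at 18 promoters. These counts describe the 7 libraries and carry no test, and no listing passed the test given further below.

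The promoters of 4 genes are shown as examples. Each had a fragment scored in every library of a single group and in no other library of the series. In Late these were Hepacam, which encodes an adhesion protein of glial cells, and Col27a1, which encodes a fibrillar collagen. In Basal they were Sp1, which encodes a transcription factor that binds GC boxes, and Zbtb26, which encodes a zinc finger protein. Among the contacts named below, Arc, Fuca1, Dtnb and Phf13 had such a fragment too and are not shown. Over the whole series, 45 listings were scored in all 4 Late libraries alone and 90 in all 3 Basal libraries alone. The sequences are from RefSeq on build GRCm38.p6, from 250 bases before to 50 bases after the start of the gene, and capitals mark matches to the GC box GGGCGG or its reverse complement CCGCCC. They lie at chr9:37367356-37367655 on the plus strand for Hepacam, chr4:63215162-63215461 on the plus strand for Col27a1, chr15:102406066-102406365 on the plus strand for Sp1 and chr2:37443123-37443422 on the minus strand for Zbtb26. The contacted fragments are given on build mm9, so no distance between promoter and fragment was computed.
Hepacam: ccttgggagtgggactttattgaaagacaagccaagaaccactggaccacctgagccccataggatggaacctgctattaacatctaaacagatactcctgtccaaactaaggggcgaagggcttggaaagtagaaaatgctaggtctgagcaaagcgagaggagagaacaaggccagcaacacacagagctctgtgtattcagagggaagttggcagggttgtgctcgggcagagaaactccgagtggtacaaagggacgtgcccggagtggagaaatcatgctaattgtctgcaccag
Col27a1: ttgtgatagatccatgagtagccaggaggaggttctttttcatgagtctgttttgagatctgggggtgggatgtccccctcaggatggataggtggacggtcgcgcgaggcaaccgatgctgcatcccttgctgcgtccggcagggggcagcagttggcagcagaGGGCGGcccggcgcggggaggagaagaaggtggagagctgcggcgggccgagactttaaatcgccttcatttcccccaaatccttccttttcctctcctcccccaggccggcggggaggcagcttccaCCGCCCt
Sp1: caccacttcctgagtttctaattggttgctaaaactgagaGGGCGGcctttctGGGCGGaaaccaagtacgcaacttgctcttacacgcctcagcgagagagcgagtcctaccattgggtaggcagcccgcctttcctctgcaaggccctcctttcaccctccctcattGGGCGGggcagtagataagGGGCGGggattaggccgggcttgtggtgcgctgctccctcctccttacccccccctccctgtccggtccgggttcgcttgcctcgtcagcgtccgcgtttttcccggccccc
Zbtb26: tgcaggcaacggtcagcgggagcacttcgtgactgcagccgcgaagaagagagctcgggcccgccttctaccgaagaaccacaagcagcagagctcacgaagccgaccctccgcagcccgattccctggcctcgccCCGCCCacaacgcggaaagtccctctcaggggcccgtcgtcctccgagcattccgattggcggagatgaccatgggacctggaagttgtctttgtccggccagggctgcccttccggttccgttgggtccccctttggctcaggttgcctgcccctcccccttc

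Hepacam had no match, Col27a1 had 2, Sp1 had 4 and Zbtb26 had 1. Of the 4429 promoters, 3262 matched an entry of the promoter table by symbol, and the GC box occurred in 62.9% of these, against 35.9% of all 27025 promoters of the same length. It occurred in 67.3% of the 153 matched promoters with a gained contact and in 71.9% of the 242 with a lost contact. The cAMP response element TGACGTCA occurred in 3.92% and 3.31%, against 3.16% of matched captured promoters. For the AP-1 site TGANTCA the shares were 0.654% (1 promoter) and 4.55%, against 4.35%. The EGR site GCGTGGGCG was found in 1.31% and 1.24%, against 0.981%, and the E-box CACGTG in 13.7% and 10.7%, against 9.78%. Both strands were searched. No motif contains another, but an EGR site followed by G ends in a GC box. The differences between the shares were not tested.

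Among contacts gained in Late, those with the highest scores in both Late sets belonged to genes with diverse functions. Ero1l, which encodes an oxidase of disulfide bond formation in the endoplasmic reticulum, had a fragment on chromosome 14, from 45940903 to 45942949 in mm9 as for all fragments here, that scored 1935, 2054, 1865 and 1243 in Late 1 to 4 and no score in Basal. A fragment of Cacna2d2, an auxiliary subunit gene of voltage-gated calcium channels, on chromosome 9 from 107291564 to 107293457, had 1167, 2455, 810 and 914 in Late and none in Basal. The 4 Late libraries were thus all high at both fragments and the groups did not overlap.

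The fragment of Ttll3, which encodes a tubulin-modifying enzyme, was scored at 1616, 2103, 694 and 519 in Late. That of Zfp59, a zinc finger gene, was scored at 1447, 1656, 533 and 351, and that of Flywch1 at 1347, 1531, 433 and 279. In these 3 the Late 1+2 libraries had the higher scores, although their median score was lower than that of Late 3+4. Gxylt1, a xylosyltransferase gene of the Notch pathway, had 319, 421, 387 and 276.

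All 6 of these fragments were also scored in at least 2 Early libraries. Ero1l, for example, had 491 and 185 in Early 1 and 4 and 3262 and 3078 in Reactivated 3 and 4. A score in Late and none in Basal was therefore not particular to Late at these fragments.

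Hepacam and Col27a1 differed from these 6 in having no score outside Late. The Hepacam fragment, on chromosome 9 from 37421784 to 37423073, had 116, 155, 716 and 530 in Late 1 to 4. The Col27a1 fragment, on chromosome 4 from 62957508 to 62958171, had 96, 125, 821 and 652. At both, Late 3 and 4 were higher than Late 1 and 2, as were their library medians.

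Arc, whose promoter drives the label, also had a fragment with this pattern at low scores. The fragment on chromosome 15 from 74557103 to 74558248 had 22, 20, 12 and 15 in Late 1 to 4 and no score in any other library of the series. The scores of Late 1 and 2 were near the median of their libraries, and those of Late 3 and 4 far below it. The 3 other listed fragments of Arc each had a single score, of 7 and 5 in Late 2 and 2 in Late 4.

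On the asinh scale, which is close to a log scale for high scores and keeps 0 at 0, the Ero1l contact had a mean of 8.16 ± 0.191 (SD, n = 2 sets) in Late and 0 in Basal. The difference of 8.16 had a standard error of 4.80, and its limma adjusted p was 0.637. The differences of the other 7 gained contacts named from the ranking lay between 6.34 for Col27a1 and 7.79 for Cacna2d2. Their limma adjusted p was 0.637 or, for Gxylt1, 0.681. For the Arc contact the difference was 3.51 ± 2.37 (standard error) and the limma adjusted p 0.637. The standard errors combine the spread of set means at a fragment, over all 4 groups, with a spread that limma draws from other listings. At some fragments the first includes sets with no score beside sets with high scores in the same group. The Arc contact was scored in Late alone, with an SD of 0.315 over the 2 Late sets. Its standard error of 2.37 thus came mainly from other listings.

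Among contacts lost in Late, the fragment of Zbtb26 (chromosome 2, 38545238 to 38548749) scored 124, 90 and 142 in Basal 1 to 3 and was without a score in Late. It was the only 1 of the 8 lost contacts named here with its highest score in Basal 3. The fragment listed with Sp1, on chromosome 15 from 37947808 to 37948359, had 564, 356 and 88. Fuca1, which encodes a lysosomal fucosidase, had 118, 88 and 72. All 3 fragments were scored in the Basal libraries alone.

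Dtnb, which encodes a dystrobrevin, had 294, 197 and 66, and Phf13, which encodes a reader of histone H3 methylation, had 244, 154 and 61, likewise in Basal alone. The remaining 3 were scored in other groups as well. Tmem158 had 285, 188 and 89 in Basal and 1936 and 2838 in Reactivated 3 and 4. Commd7 had 882, 505 and 81 in Basal and 542 and 286 in Early 3 and 4, and Il17re, an interleukin 17 receptor gene, had 647, 456 and 62 in Basal and 36 and 6 in Early 3 and 4. Of the 8 lost contacts, 5 were thus found in no group but Basal, against 2 of the 8 gained contacts found in no group but Late. Over the whole classes the order was the opposite, with 52.5% of gained and 28.5% of lost listings scored in neither Early nor Reactivated.

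For Zbtb26 the mean asinh score was 5.50 ± 0.209 (SD, n = 2 sets) in Basal and 0 in Late. The difference was -5.50 ± 2.87 (standard error), at a limma adjusted p of 0.637. The other 7 lost contacts differed by -6.14 to -5.14, with limma adjusted p of 0.637 or, for Tmem158, 0.716.

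Only 28 listings, from 17 fragments, were scored in all 7 libraries. Ptpn7, which encodes a tyrosine phosphatase, had 174, 115 and 113 in Basal and 899, 1067, 2638 and 1777 in Late. The fragment of Kcna1, the gene of the potassium channel Kv1.1, had 1376, 824 and 111 in Basal and 2737, 3369, 441 and 365 in Late, so the groups overlapped. Enah, which encodes an actin regulator of growth cones, had 659, 2016 and 91 in Basal and 1976, 2531, 3248 and 2379 in Late. Here only Basal 2 reached the range of Late.

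Cldn12, a claudin gene, had 4040, 2390 and 87 in Basal and 4168, 5049, 3448 and 2597 in Late, and Zfp687, a zinc finger gene, had 1626, 958 and 64 in Basal and 1915, 2334, 3862 and 2770 in Late. The X-linked gene Magt1, which encodes a protein of magnesium transport and N-glycosylation, had 285, 165 and 29 in Basal and 30, 24, 299 and 188 in Late. The differences on the asinh scale ran from 0.0058 for Magt1 to 2.44 for Ptpn7, with standard errors of 4.19 to 7.32 and a limma adjusted p of 1 for each. In each of the 6 contacts the lowest Basal score was that of Basal 3, whose median score of 13 was the lowest of the 7 libraries. Without Basal 3 the difference was 0.036 in place of 1.17 for Kcna1, 0.176 in place of 1.96 for Cldn12, 0.745 in place of 2.23 for Zfp687, 0.772 in place of 2.04 for Enah and -1.0 for Magt1, while Ptpn7 stayed at 2.33.

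**Figure D2:**
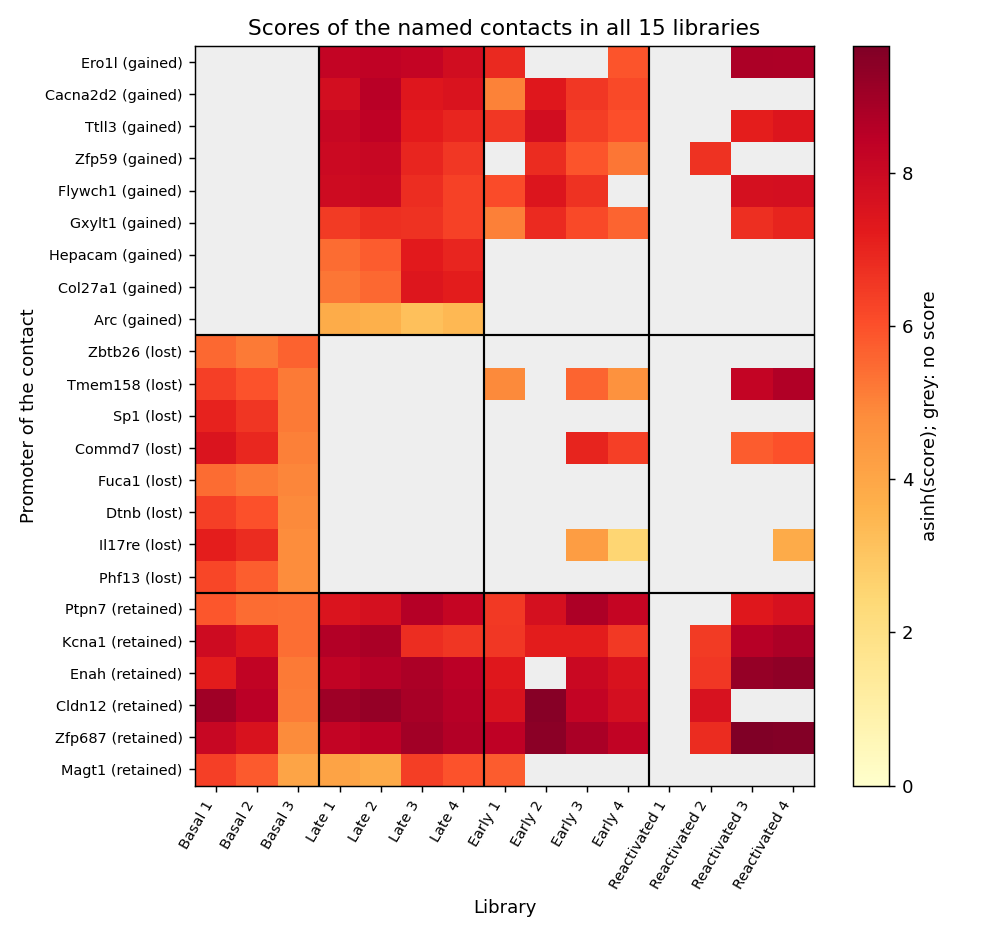
Scores of the 8 gained, 8 lost and 6 retained contacts named from the ranking and of the Arc contact in all 15 libraries, as asinh(score) by colour, with grey for no score and black lines between groups. The fragments of Hepacam, Col27a1 and Arc are coloured only in Late, those of Zbtb26, Sp1, Fuca1, Dtnb and Phf13 only in Basal, and the retained contacts in all 7 Late and Basal libraries.

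As a class, the gained contacts were not marked by high scores. Their median scores in Late 1 to 4 were 22, 23, 164 and 103, next to 18, 19, 160 and 99 for all listings of those libraries. Lost contacts had medians of 419, 300 and 13 in Basal 1 to 3, against 299, 194 and 13. For retained contacts the medians were 41, 61, 837 and 576 in Late and 614.5, 414 and 19 in Basal, each above the library median. Scores in all 4 Late libraries were found for 85 of the 223 gained listings, and scores in all 3 Basal libraries for 308 of the 390 lost listings. The median fragment length was 2741 bp for gained, 3459 bp for lost and 3238 bp for retained contacts, against 2939 bp over all listings.

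The stages on either side of Late in the design held part of these contacts. Of the gained listings, 38.6% were also scored in an Early library and 26.9% in a Reactivated library. The lost listings were scored in Early for 49.7% and in Reactivated for 44.4%. Of all listings called in any Late set with no Basal score, 67.1% were scored in neither, and of those called in any Basal set with no Late score, 49.1%. Of the retained listings, 6 of 58 were scored in neither.

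A fragment shared by several promoters has the same score in each listing, so such a contact cannot be given to 1 gene. This applied to 52 of the 223 gained listings (23.3%), to 83 of the 390 lost (21.3%) and to 33 of the 58 retained (56.9%). The contacts named above were taken from fragments with a single promoter.

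Some gained and lost contacts lay next to a fragment that the other group did contact. Of the gained listings, 15 had a Basal-scored fragment of the same promoter directly adjacent and 42 within 10 kb, while 42 had no Basal-scored fragment of that promoter at all. The median gap over the 181 with such a fragment was 83396 bp. Of the lost listings, 40 had a Late-scored fragment of the same promoter adjacent and 91 within 10 kb, 17 had none, and the median gap over 373 was 42640 bp. Counting only contacts with no such fragment within 10 kb left 181 gained and 299 lost.

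A few promoters held several gained or lost contacts. At least 2 gained contacts were found at 9 promoters, with Lsm11, an RNA processing gene, at 3, and at least 2 lost contacts at 37. Brd3, which encodes a bromodomain reader of acetylated histones, and Hlf, which encodes a bZIP transcription factor, had 2 gained contacts each. Crebzf and Krtcap2 had 4 lost contacts, and Cadm4, which encodes a synaptic adhesion protein, Ccdc85c and Ripply3 had 3. These promoters were picked after their counts were seen. Of the 37 promoters, 3 had all their lost contacts on fragments shared with other promoters.

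On chromosome 18, 21 of the 22 listings called in both Basal sets had no Late score (95.5%), against 22.6% on chromosome 13 and 64.9% on chromosome 12 as the lowest and highest of the other chromosomes with such listings. The 21 listings came from 18 fragments and 19 promoters. Chromosome 18 was picked out after its share was seen, and the share was not tested. Of the 11 listings there that were called in both Late sets, 5 had no Basal score.

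Sharing across groups lay in the range found within them or above it. The 2 Basal sets had 659 called fragments in common, 7.68% of those called in either, and the 2 Late sets 358, or 3.06%. Across groups, Basal 3 and Late 3+4 had 1536 in common (14.2%), Basal 1+2 and Late 3+4 had 836 (7.90%), Basal 1+2 and Late 1+2 had 392 (4.58%) and Basal 3 and Late 1+2 had 369 (3.89%). Each of the 4 values across groups was above that between the Late sets. Relative to each set, the 1536 fragments were 30.3% of those called in Basal 3 and 21.2% of those in Late 3+4.

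Many promoters were called in several sets through different fragments. Of 4095 promoters with a call, 967 (23.6%) had one in all 4 sets, but only 55 of these had a fragment called in all 4. Both Late sets called contacts of 1942 promoters, and 396 of them had a fragment in common between the sets. For the Basal sets the counts were 1521 and 644. Contacts were called in both Late sets and in no Basal set at 312 promoters, and in both Basal sets and no Late set at 51.

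Fragments in the highest score quartile of a set were found again more often than those in the lowest. In Late 3+4, 49.8% of the called fragments in the highest score quartile were also scored in Basal, against 17.9% in the lowest. In Late 1+2 the shares were 19.1% and 8.69%, in Basal 1+2 34.0% and 25.8% for a score in Late, and in Basal 3 39.0% and 30.4%. The other set of the same group held fewer of them in each case. For the highest quartile of Late 3+4 it was 7.66% in Late 1+2, and for that of Basal 1+2 it was 24.8% in Basal 3. The other group has up to 4 libraries and the other set 1 or 2, which differ in how many fragments they list.

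**Figure D3:**
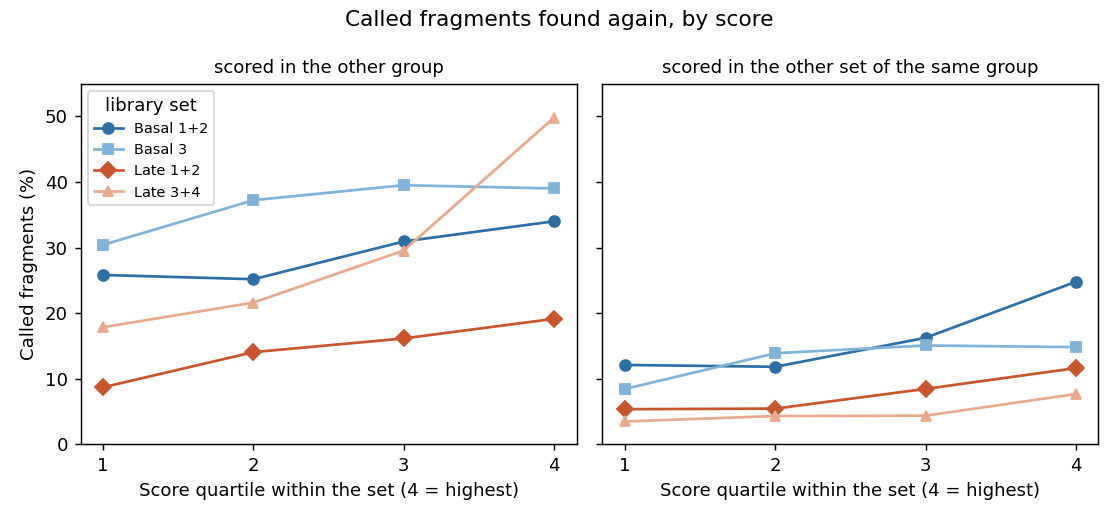
Called fragments of each library set that were also scored in any library of the other group (left) or in the other set of the same group (right), in percent, by quartile of the mean score within the set. Late 3+4 goes from 17.9% in the lowest to 49.8% in the highest quartile on the left and from 3.47% to 7.66% on the right.

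By limma on the asinh scores of the 9 library sets of the series, 0 of 36353 listings (0%) passed at an adjusted p under 0.05. An unadjusted p under 0.05 was reached by 11 listings (0.0303%), 4 of them higher in Late and 7 lower. For the mean score per promoter, taken over all fragments listed with it, 0 of 4429 promoters passed by limma, and 128 (2.89%) had an unadjusted p under 0.05, with 83 higher and 45 lower. For the number of called contacts per promoter, 0 of 4403 passed by limma, and 77 (1.75%) had an unadjusted p under 0.05, with 67 higher and 10 lower. The shares of unadjusted limma p under 0.05 were each below the 0.05 that evenly spread p-values would give. With no variance trend 397 listings had such a limma p, and with libraries as units 4698. A contact that did not pass is not thereby shown to be equal in the groups. Without Reactivated 1 and 2, a set with few scores, limma called 43 listings, 17 higher and 26 lower, among them those of Arc, Zbtb26 and Fuca1 named above. In each of these listings, Late or Basal had no score at all. Some also lacked a score in part of the scored group, such as Grik2 with 503, 0 and 18 in Basal and Zfp91 with 0, 20, 0 and 14 in Late. With Reactivated 1 and 2 left out, Reactivated was a single set and added no spread to the fit. The standard error of the Arc contact was then 0.152 in place of 2.37. This contact had no score in Reactivated, and its Late and Basal values were the same in both fits. What changed at Arc was thus mainly the spread drawn from other listings.

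Counted per promoter, contacts were more numerous in Late at 2231 of 4429 promoters (50.4%), fewer at 1502 (33.9%) and equal at 362 of those with a call. The median difference in called contacts over all promoters was 0.25. Called listings numbered 4544, 4021 and 5833 in Basal 1 to 3 and 3425, 3739, 7806 and 7651 in Late 1 to 4. Late 1 and 2 thus had fewer than every Basal library, and Late 3 and 4 had more. Both Late sets lay above both Basal sets at 442 promoters (9.98%) and below them at 222 (5.01%). Without Basal 3 the first count was 805 and the second 669, with Basal then a single set.

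The promoters that gained most were Cacna2d1, Kcnq5, Rbfa, Rnf20 and Nr3c2. Rnf20, which encodes a ubiquitin ligase for histone H2B, had 1, 2 and 0 called contacts in Basal 1 to 3 and 6 in each of the 4 Late libraries. It was the only 1 of the 5 in which every Late library was above every Basal library, at a difference of 5.25 ± 2.36 (standard error), with 1 as its limma adjusted p and 0.0260 before adjustment. By the definitions above Rnf20 had 0 gained and 0 retained contacts. No fragment of it was thus called in both Late sets and unscored in Basal. Cacna2d1, an auxiliary subunit gene of calcium channels and the target of gabapentin, had 3, 1 and 12 in Basal and 6, 7, 20 and 19 in Late. Kcnq5, a gene of the potassium channels behind the M current, had 1, 1 and 0 in Basal and 1, 0, 11 and 13 in Late.

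Nr3c2, the mineralocorticoid receptor gene, had 1, 1 and 0 in Basal and 2, 1, 10 and 9 in Late, and Rbfa, a mitochondrial ribosome assembly gene, had 4, 2 and 4 in Basal and 1, 4, 16 and 16 in Late. In Kcnq5, Rbfa and Nr3c2 the gain lay in Late 3 and 4, the libraries with the most scored fragments. For Cacna2d1 the difference was 6, and 11 without Basal 3. The limma adjusted p was 1 for each of the 5.

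Among the largest losses, Crebzf, which encodes a bZIP factor, had 19, 17 and 21 called contacts in Basal and 12, 10, 8 and 11 in Late. Krtcap2, an oligosaccharyltransferase subunit gene, had 8, 6 and 14 in Basal and 2, 4, 4 and 4 in Late, and Relb, an NF-kB subunit gene, had 10, 8 and 6 in Basal and 2, 3, 2 and 3 in Late. In these 3 promoters no Late library reached a Basal library. Fmn2, which encodes a formin of neurons and oocytes, had 1, 2 and 9 against 0, 1, 1 and 0, and Arfgef1, which encodes an activator of ARF GTPases, had 7, 4 and 20 against 3, 0, 15 and 15. The loss at Arfgef1 rested on Basal 3, and without that library the difference was 2.75 in place of -4.50. Leaving it out also moved Fmn2 from -4.75 to -1 and Krtcap2 from -7 to -3.5. The difference for Crebzf was -9.25 ± 26.9 (standard error). By limma the adjusted p was 1 for each of the 5.

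**Figure D4:**
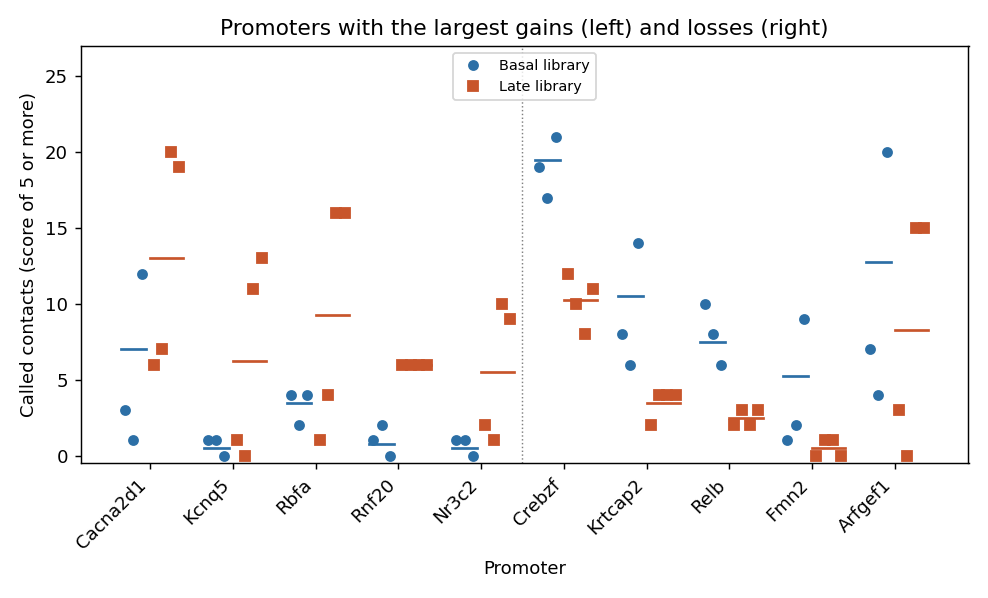
Number of called contacts in each Basal library (blue circles) and each Late library (orange squares) for the 5 promoters that gained most and the 5 that lost most, in library order within a group, and lines at the mean of the set means. Rnf20 has 6 in each Late library, whereas in Kcnq5, Rbfa and Nr3c2 only Late 3 and 4 are high.

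Of 26 measured immediate early and activity-regulated genes, 11 had more called contacts in Late and 11 fewer, with a median difference of 0. Each share was 42.3%, against 50.4% and 33.9% of all promoters. Without Basal 3, 17 had more and 8 fewer. Arc had 0 in each Basal library and 1, 3, 1 and 1 in Late. Nfil3, a bZIP repressor gene, had 2 in each Basal library and 5, 6, 4 and 2 in Late, and Klf2, a zinc finger factor gene, had 0, 0 and 1 against 5, 5, 1 and 0. A gained contact was found at 4 of the 26 (15.4%, against 4.81% of all promoters): Arc, Ier5, Nfil3 and Klf4. Ier5 also had a lost contact and went from 6, 2 and 11 called contacts in Basal to 2, 1, 7 and 7 in Late. Maff, a small Maf factor gene, had 2 in each Basal library and 0 in each Late library. Jund, an AP-1 subunit gene, had 4, 3 and 4 called contacts against 0, 0, 4 and 4.

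Of 23 measured genes of the presynaptic release machinery, 15 had more called contacts in Late and 4 fewer (65.2% and 17.4%), with a median difference of 0.5 against 0.25 over all promoters. Without Basal 3, 18 had more and 1 fewer. Summed over the 23 genes, called contacts were 13, 9 and 21 in Basal 1 to 3 and 13, 12, 49 and 42 in Late 1 to 4. The excess in this sum lay in Late 3 and 4, the libraries with the most scored fragments. Both Late sets lay above both Basal sets at 6 of the 23 (26.1%, against 9.98%). These were Syt4, a synaptotagmin gene, Snap25, a SNARE gene of vesicle fusion, the active zone genes Rims1 and Ppfia2, Rab3b, a small GTPase gene of vesicles, and Sv2b, a vesicle glycoprotein gene. Each had 0 in all Basal libraries, between 0 and 4 in the Late libraries and no gained contact. Ppfia2 had 2, 1, 3 and 3 in Late. Rab3a had 2, 1 and 1 in Basal and 1, 1, 5 and 6 in Late, and Sv2a went the other way, with 2, 2 and 4 against 1, 0, 1 and 2.

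Of 15 measured genes of the postsynaptic scaffold and of calcium and calmodulin signalling, 3 had more called contacts in Late and 8 fewer. The shares were 20% and 53.3%, against 50.4% and 33.9% of all promoters. The median difference was -0.25, against 0.25 over all promoters. Both Late sets lay below both Basal sets at 3 (20%, against 5.01%). Camk2g, a subunit gene of the calcium/calmodulin kinase CaMKII, had 5, 4 and 4 in Basal and 1, 1, 2 and 0 in Late. Homer3, a scaffold gene, had 2, 1 and 5 against 0, 0, 1 and 1, and Camk1d, a calmodulin kinase gene, had 3, 3 and 5 against 1, 1, 2 and 2. Without Basal 3, 8 of the 15 had more in Late and 6 fewer, and without Basal 1, 5 had more and 8 fewer.

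Among 27 glutamate receptor genes, 13 had more called contacts in Late (48.1%, against 50.4% of all promoters) and 10 fewer (37.0%, against 33.9%). Grin2a, an NMDA receptor subunit gene, had 0 in Basal and 1, 1, 3 and 3 in Late. The AMPA receptor subunit gene Gria2 had 0 in Basal and 0, 1, 2 and 2 in Late. The kainate receptor gene Grik4 had 3, 4 and 10 against 1, 1, 8 and 8, so that its groups overlapped. Of 13 GABA receptor, synthesis and transport genes, 5 had more and 7 fewer (38.5% and 53.8%), or 3 and 7 without Basal 2. Gad2, which encodes a GABA-synthesising enzyme, had 0 in Basal and 2, 2, 1 and 2 in Late, whereas the GABA transporter gene Slc6a11 had 5, 3 and 2 against 0, 2, 0 and 0.

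Of 25 voltage-gated channel genes, 11 had more and 9 fewer (44% and 36%, against 50.4% and 33.9% of all promoters). Cacnb4, a calcium channel subunit gene, had 0 in Basal and 4, 6, 2 and 2 in Late. Of 38 adhesion genes, 24 had more (63.2%, against 50.4%) and 9 fewer (23.7%, against 33.9%). Of 23 actin and small GTPase genes, 9 had more and 8 fewer (39.1% and 34.8%), or 14 and 6 without Basal 3. Cntnap2, a neurexin family gene, had 1, 1 and 0 against 5, 5, 0 and 0, with the difference in Late 1 and 2 alone. Tiam1, which encodes a Rac activator of dendritic spines, had 0 in Basal and 1, 0, 3 and 3 in Late.

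Among genes of the nucleus, 17 of 29 chromatin modifiers (58.6%, against 50.4% of all promoters) had more called contacts in Late and 8 (27.6%, against 33.9%) fewer, and both Late sets lay above both Basal sets at 4 (13.8%, against 9.98% of all promoters). Besides Rnf20 these were the histone demethylase genes Kdm3a, with 2, 3, 1 and 1 in Late, and Kdm4b, with 1, 1, 3 and 2, and the remodeller gene Arid1b, with 1, 0, 2 and 3, and each of these 3 had 0 in Basal. Hdac4, a deacetylase gene, had 4, 4 and 3 in Basal and 0, 0, 2 and 1 in Late. Summed over the 29 chromatin modifiers, called contacts were 26, 24 and 21 in Basal and 24, 24, 52 and 51 in Late. As shares of all called listings of each library these were 0.572%, 0.597% and 0.360% in Basal and 0.701%, 0.642%, 0.666% and 0.667% in Late. Only 4 cohesin, CTCF and looping genes were measured. Esco1, a cohesin acetyltransferase gene, had 1, 1 and 2 against 3, 1, 7 and 7, and Yy1, a factor gene linked to promoter loops, had 2 in each Basal library against 1, 1, 2 and 1.

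Of 28 genes of MAP kinase, cAMP and CREB signalling, 18 had more (64.3%, against 50.4%) and 7 fewer (25%, against 33.9%). Their summed calls were 33, 27 and 20 in Basal and 20, 26, 54 and 51 in Late. As shares of all called listings of each library these were 0.726%, 0.671% and 0.343% in Basal and 0.584%, 0.695%, 0.692% and 0.667% in Late. Basal 1 thus had the highest share and Basal 3 the lowest. Mapk9, which encodes a JNK kinase, had 0 in Basal and 2 in each Late library, and Adcy6, an adenylate cyclase gene, had 3, 2 and 3 in Basal and 0, 2, 0 and 0 in Late. Of 24 translation factor and ribosome genes, 12 had more and 10 fewer (50% and 41.7%). Eif3b, an initiation factor gene, had 2, 2 and 6 against 0, 0, 1 and 1. No member of these lists passed by limma over the 9 sets in any of the 3 tests. Single listings of members such as Arc, Brd3 and Grik2 were among the 43 that passed without Reactivated 1 and 2. No list was tested as a set.

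Among the marker lists of cell types, 5 of 10 astrocyte genes had more called contacts in Late and 3 fewer (50% and 30%). Of 9 oligodendrocyte genes, 4 had more and 4 fewer (44.4% each). Of 4 microglia and endothelial genes, 2 had more and 0 fewer. Over all promoters the shares were 50.4% and 33.9%. Olig2, a transcription factor gene of the oligodendrocyte lineage, had 0 in Basal and 3, 1, 3 and 3 in Late, with a gained contact, and Mog, a myelin gene, had 0 in Basal and 2, 1, 2 and 2 in Late. Sox10, another factor gene of that lineage, had 2, 2 and 1 in Basal and 0, 1, 0 and 0 in Late, and Olig1, Cnp and Mobp also had lower means in Late. Of 17 excitatory neuron genes, 6 had more and 9 fewer (35.3% and 52.9%). Of 14 interneuron genes, 7 had more and 6 fewer (50% and 42.9%). The summed calls of the microglia and endothelial genes were 2 in each Basal library and 8, 8, 2 and 3 in Late, and those of the astrocyte genes 8, 8 and 2 against 3, 4, 13 and 13. As shares of each library's called listings, the astrocyte sums were 0.176%, 0.199% and 0.0343% in Basal and 0.0876%, 0.107%, 0.167% and 0.170% in Late. What part cell composition had in any contact was not tested.

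**Figure D5:**
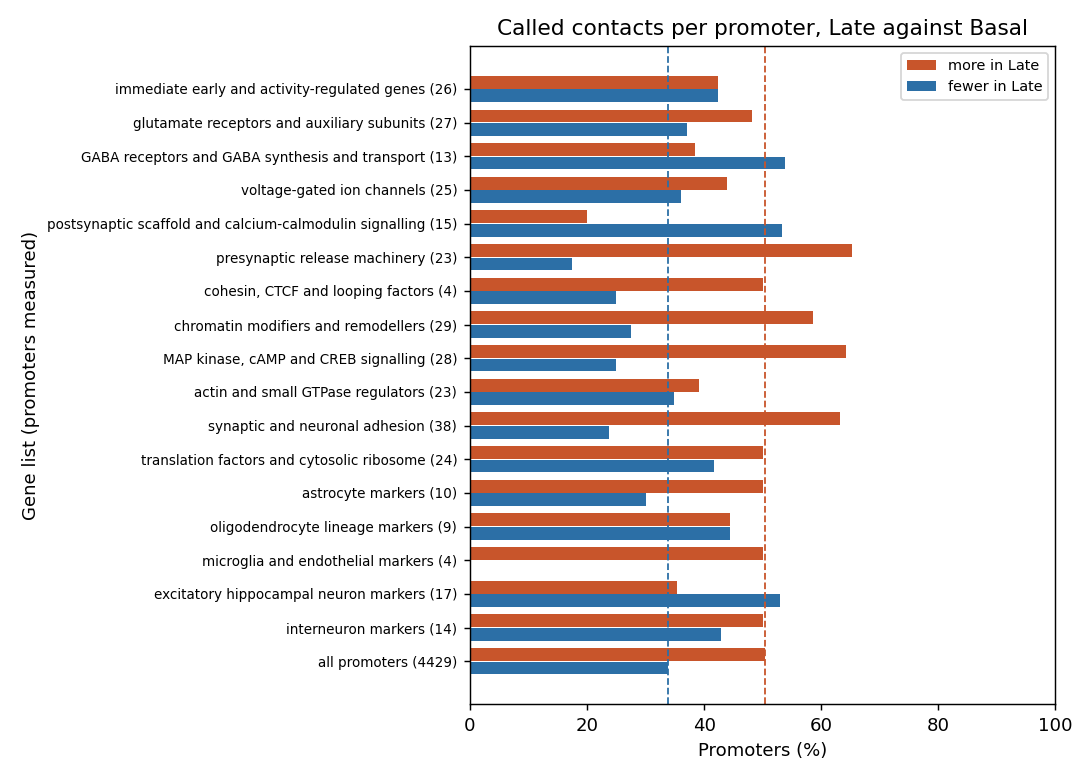
Percentage of measured promoters in each gene list with more (orange) or fewer (blue) called contacts in Late than in Basal by set means, with the number measured in parentheses and dashed lines at the values over all promoters (50.4% and 33.9%). The presynaptic list has 65.2% more and 17.4% fewer, and the postsynaptic and calmodulin list 20% more and 53.3% fewer.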

How the data were processed

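Per the file headers, the deposited values are an interaction score that the authors computed for every listing and for all 15 libraries, and build mm9 is named in the submitters' processing notes. The program, filters and scaling behind the score were not given in the sources used here. Per the labels' protocols, fixation was 10 min in 2% paraformaldehyde, and libraries were amplified in 17 cycles and captured with 10000 baits for 5000 promoters. All scores are whole numbers, the lowest being 2, and bait positions were not used here, so contact distances were not computed.

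Groups came from the titles. Scores were transformed to asinh(score) with no score as 0 and no filter. Within a group, libraries with 40% or more fragments in common (relative to the smaller) entered as 1 set mean, giving 9 sets (2 Basal, 3 Early, 2 Late and 2 Reactivated). Late and Basal were compared with limma 3.58.1 (robust empirical Bayes, variance trend, statmod 1.5.0, R 4.3.3) over all 9 sets, with Benjamini-Hochberg adjustment over all listings or promoters and a threshold of 0.05. P-values measure the spread between these sets, which may be technical, with the spread of each row drawn toward that of other rows. The fits were tested on simulated data, where recovery of a known change was required only for rows with a small spread. Of the promoter names, 4280 matched a RefSeq symbol, 144 a synonym and 5 neither, and names are printed as deposited.

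The members, the 17 gene lists and the rules were chosen with earlier results of these data known. Named contacts were, among fragments with 1 promoter, the 8 scored in all Late and no Basal libraries with the highest lower set mean, the 8 in the reverse case, and the 6 scored in all 7 libraries with the highest lowest score. Named promoters were the 5 that gained and the 5 that lost most called contacts, up to 3 members of each list in each direction, and Arc. Clone names, olfactory receptors, microRNAs and predicted genes were left out. Some genes that the rule selects are not reported here. List members whose sets did not overlap or that held a gained contact were named in addition, after their values were seen. Alternatives covered the unit of replication, the scale, the call and single libraries. Other steps used scipy 1.17.1, numpy 2.4.6, pandas 2.3.3 and matplotlib 3.10.9 in Python 3.11.15.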

Additional observations from a re-analysis of the deposited data

Results flagged for a closer look

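Of 38 values examined in the 4 Late libraries (library measures, named contacts and named promoters), 1 had a library far from the others. Krtcap2 had 2 called contacts in Late 1 and 4 in each of Late 2, 3 and 4, all below the Basal libraries at 8, 6 and 14. Chance flags about 1 in 20 such groups, and with whole numbers this small the gap is 2 contacts.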

How the results depend on the processing

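The number of listings that passed by limma was 0 in each alternative run except without Reactivated 1 and 2 (43). For mean promoter scores, 3 promoters passed with libraries as units (Tgm2 higher, Dclre1c and Maff lower in Late), which counts paired libraries separately, and 0 with the library set as a random block (smallest limma adjusted p 0.672). With leave-one-out the count was 0 to 15, the 15 without Basal 3, all lower. For called contacts it was 0 throughout. With libraries as units and a replicate block, 0 listings, 2 promoters by mean score (Tgm2 and Dclre1c) and 0 by called contacts passed. Library numbers pair nothing in the labels. Deviations of same-numbered libraries correlated at 0.0514 to 0.0866, and those of differently numbered libraries at -0.0889 to 0.0806.

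Called in every library of the group, 83 contacts were gained and 28 retained, and with fragments of 1 promoter 25 were retained. Leaving out single libraries gave 156 to 324 gained, 326 to 3277 lost, 42 to 113 retained, a difference of 259 to 1669 in fragments per library, 354 to 805 promoters with Late sets above and 203 to 669 below. The highest values for gained, lost, retained and both promoter counts were those without Basal 3, where 1 Basal set was left. No Late library left out removes a set. Of 314 alternative values of named contacts and promoters, 305 kept their direction, 3 of minor Arc fragments were 0 and 6 turned. The difference of Arfgef1 in called contacts ran from -5.25 to 2.75 (without Basal 3) on leaving out single libraries. The Magt1 contact turned to -0.329 with libraries as units and ran from -1.0 (without Basal 3) to 0.142 on leaving out single libraries. Of 238 list counts without a library, 232 stayed within 1.5 times, and the other 6 are given with their lists. The settings added after the data were seen were the 10 kb limit and the list and promoter counts without single libraries. Read depth is unknown, so how far depth sets the number of contacts per library was not tested.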
